A study of Homo sapiens with 22 samples.

Results

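The genes PELO, HBS1L, ABCE1, NEMF, LTN1, TCF25, ANKZF1, VCP, GTPBP1 and GTPBP2, which rescue stalled ribosomes and clear their unfinished proteins, were followed through a chase of labelled RNA in HEK293T cells, a human embryonic kidney line. The 10 genes were chosen by name for their role, and each was read from the protein-coding transcript with the highest mean count over the chase of 0-10 h. They account for 132 of the 227264 transcript rows that every library holds, from 61156 annotated genes. BRIC-Seq was used, in which cells build the uridine analogue bromouridine (BrU) into new RNA and labelled RNA is recovered with an anti-BrdU antibody as the label is chased out. Cells with a control hairpin (shControl) were set against cells with a short hairpin RNA that targets ZNF598 (shZNF598). ZNF598 is the ubiquitin ligase by which cells mark ribosomes that have run into each other. Whether a line is a clone is not given in the sources used here. Both populations received 150 µM BrU for 24 h before the chase. For each shRNA there were 2 libraries at 0, 2, 4, 6 and 10 h of chase and 1 library at 24 h, which makes 22 libraries in 12 groups. Nothing in the sources used here says that paired libraries came from separate cultures, so p-values measure the spread between these libraries, which may be technical.

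A ribosome that stalls on an mRNA is split into its subunits by Pelota (PELO), its partner GTPase HBS1L and the ATPase ABCE1 when the site for the next tRNA is empty. After splitting, the large subunit still holds a nascent chain, which NEMF binds and extends, the E3 ligase Listerin (LTN1) ubiquitinates with TCF25 in the same complex, ANKZF1 releases from its tRNA, and the ATPase VCP extracts for the proteasome. GTPBP1 and GTPBP2 are GTPases related to HBS1L that act on stalled elongating ribosomes. ZNF598 acts at the recognition of the collision. The paper places its ubiquitination of stalled ribosomes before their splitting by a complex called RQT and the degradation of the nascent chain. It lists GTPBP1 and GTPBP2 among mechanisms that presumably act redundantly. Where PELO, HBS1L and ABCE1 stand relative to ZNF598 is not stated there.

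Levels are given in CPM, the count of a transcript relative to the total of its library after TMM scaling, which sets the bulk of each library to a common level. A slope is the change in log2 CPM per hour of chase over 0-10 h, so a slope of 0 is loss at the rate of the bulk, a negative slope is faster loss and a positive slope is slower loss. The spike-in RNA that the study added was not used here, and no value below is an absolute half-life. A rise in CPM is a rise relative to the bulk and does not show a gain of labelled RNA. The 24 h libraries, 1 per shRNA, did not enter the fits. Total counts were 52352359 to 96963584 per library over 0-10 h and 21220829 (shControl) and 40157613 (shZNF598) at 24 h. The 10 genes rested on 76 (PELO) to 11616 (VCP) counts per library over 0-10 h, a depth at which counting error is largest for PELO and ANKZF1. ZNF598 itself was lower in shZNF598 cells, with a difference of -3.08 log2 units at 0 h (95% interval -3.47 to -2.69, adjusted p = 2.59e-10 in edgeR's quasi-likelihood test), and every shZNF598 library lay under every shControl library. The size of the difference varied over the chase. On low counts, ZNF598 in shZNF598 cells changed by -1.07 (SE 0.251) from 0 to 4 h and by 1.155 (SE 0.259) from 4 to 10 h. The latter change differed between the shRNAs by 1.52 (SE 0.303, adjusted p = 0.0453, same test). These contrasts were chosen after the data were seen. At 24 h the single libraries had 2.45 CPM in shZNF598 and 4.98 CPM in shControl cells. Of the markers of the line, VIM, KRT8, KRT18, CDH2 and NEFM were detected in every library (VIM at 96.8 to 221 CPM and NEFM at 0.655 to 1.98 CPM), while PAX2 was close to 0 at 0.0103 to 0.0977 CPM. ALB, PTPRC and HBB had at most 2 counts in a library, and COL1A1, a fibroblast marker, was at 0.563 to 1.76 CPM. The replicate libraries of shControl at 0 h lay furthest apart (chi-square per degree of freedom of 18.8, against 2.31 to 12.6 in the other groups), and every value set against 0 h in shControl cells rests on that pair.

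The 10 genes differed widely in level. Per kilobase of transcript, the 0 h level in shControl cells was highest for VCP (27.9 ± 3.03 CPM per kb, SD, n = 2), followed by ABCE1 (11.3 ± 1.03), GTPBP1 (8.52 ± 0.89), HBS1L (4.06 ± 0.357), GTPBP2 (3.56 ± 0.39) and TCF25 (3.28 ± 0.482). PELO (1.85 ± 0.267), LTN1 (1.69 ± 0.385), ANKZF1 (1.35 ± 0.094) and NEMF (1.27 ± 0.257) formed the low end. VCP, ABCE1 and GTPBP1 were separated from their neighbours in that order by more than the 2 libraries varied, and so was TCF25 from PELO. HBS1L overlapped with GTPBP2 and GTPBP2 with TCF25, and each of the 4 lowest genes overlapped with its neighbour. The order was the same in shZNF598 cells, from 28.2 CPM per kb for VCP to 1.23 for NEMF. Each level is that of a single transcript row, in which reads shared with other isoforms of the gene are counted too.

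**Figure D1:**
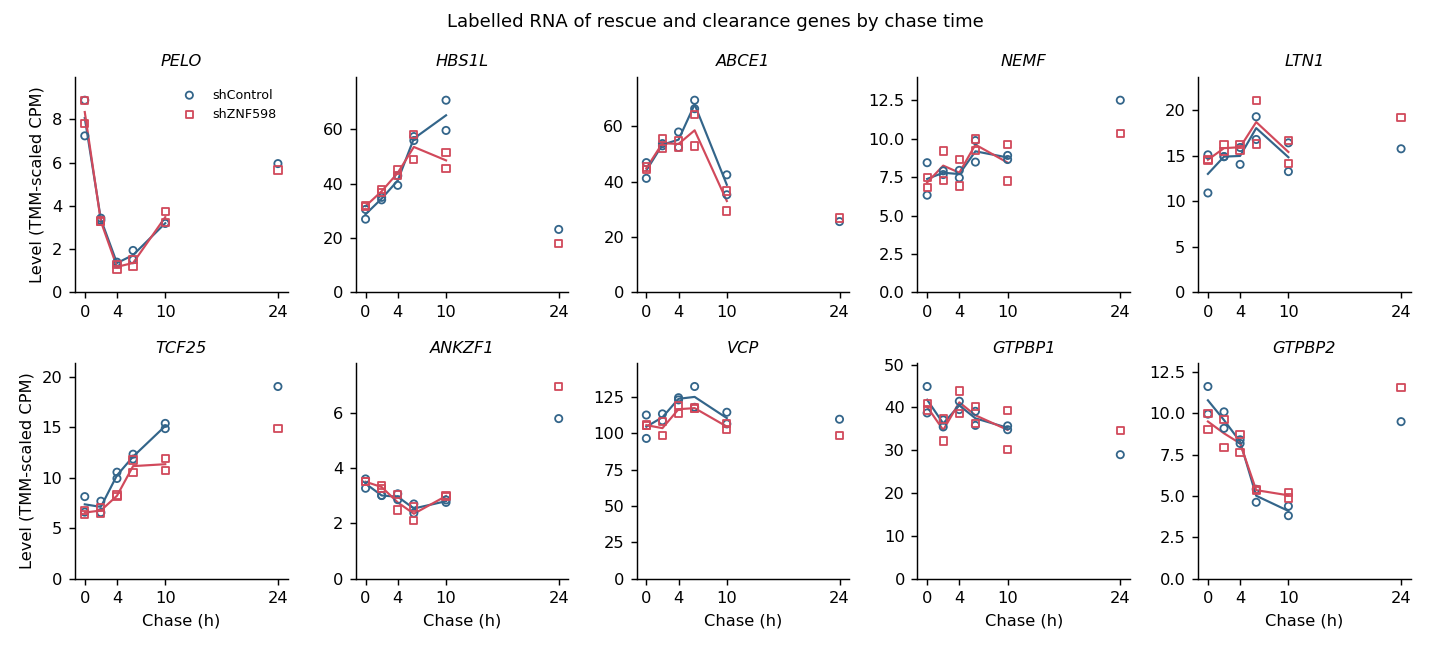
Level of each of the 10 genes (TMM-scaled CPM, vertical axes from 0 with a scale of their own) against hours of chase. Circles are shControl and squares shZNF598 libraries (2 per group, 1 at 24 h), and lines join the group means of 0-10 h. PELO falls to 1.36 CPM at 4 h in shControl cells and then rises, HBS1L and TCF25 rise, GTPBP2 falls, and VCP stays between 96.4 and 132 CPM.

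Over 0-10 h, HBS1L and TCF25 were lost more slowly than the bulk, and GTPBP2 was lost faster, in both cell populations. These 3 of the 10 genes had a slope different from 0 at an adjusted p below 0.05 in shControl cells, and the same 3 in shZNF598 cells. Among all 79513 transcripts tested, which averaged 1 CPM or more, 74.4% were called in shControl and 71.2% in shZNF598 cells, so the share called among the 10 genes was below the background with this scaling and window. By direction the background was 33.5% above 0 and 40.8% below 0 in shControl cells, and 32.7% and 38.5% in shZNF598 cells. The median slope of the 10 genes was -3.15e-05 log2 per hour in shControl cells, against -0.0178 over all transcripts and -0.035 with 1 transcript per gene. In shZNF598 cells it was -0.00528 against -0.0144 and -0.0295. All slopes depend on what the bulk does. With scaling by library totals in place of TMM the median of all slopes moved to -0.0855 in shControl and -0.0755 in shZNF598 cells, and the share of positive slopes among all called transcripts went from 45.1% to 22.5% and from 46% to 22.5%. The count among the 10 genes then rose to 8 in shControl and 6 in shZNF598 cells, against 78.5% and 75.8% of all transcripts. Over 0-6 h it was also 8 and 6, against 67% and 64.6% of all.

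**Figure D2:**
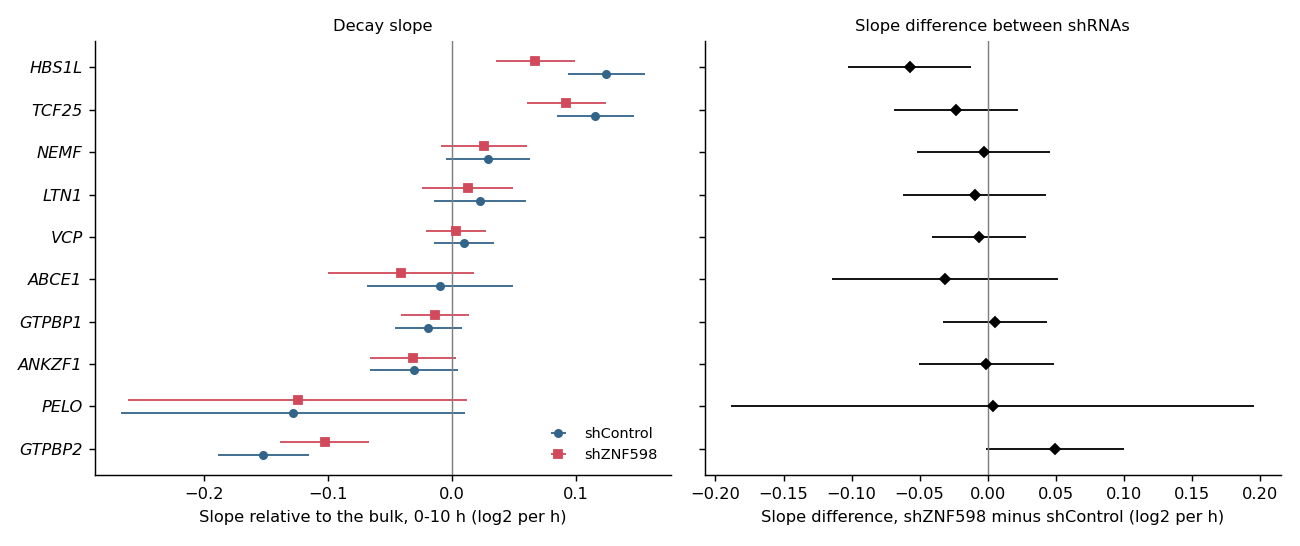
Left, slope of each gene relative to the bulk over 0-10 h (log2 per h) in shControl (circles) and shZNF598 (squares) cells. Right, the slope difference, shZNF598 minus shControl. Bars are 95% intervals of the edgeR fit. HBS1L and TCF25 lie above 0 and GTPBP2 below 0 on the left, and on the right the interval of HBS1L alone leaves out 0 before adjustment.

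Among the factors that split the ribosome, PELO had the steepest loss early in the chase. PELO (ENST00000274311.3, GRCh38 chromosome 5, 52787916 to 52804044, plus strand, 4371 nt) stood at 7.24 and 8.89 CPM at 0 h in the shControl libraries. It was at 3.34 and 3.44 CPM at 2 h, at 1.40 and 1.32 CPM at 4 h, at 1.94 and 1.52 CPM at 6 h, at 3.21 and 3.20 CPM at 10 h and at 5.96 CPM at 24 h. In shZNF598 cells the libraries gave 8.87 and 7.81 CPM at 0 h, 3.30 and 3.27 at 2 h, 1.07 and 1.30 at 4 h, 1.22 and 1.51 at 6 h, 3.23 and 3.74 at 10 h and 5.66 at 24 h. Both libraries at 4 h lay under every library of 0, 2 and 10 h of the same shRNA. Relative to the bulk, the level thus fell and rose again in both cell populations. In percent of the 0 h mean, PELO was at 16.9% at 4 h, 39.7% at 10 h and 73.9% at 24 h in shControl cells, and at 14.2%, 41.8% and 67.8% in shZNF598 cells.

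A straight line describes such a course poorly. The slope of PELO over 0-10 h was -0.13 (SE 0.0666, adjusted p = 0.087) in shControl and -0.12 (SE 0.0657, adjusted p = 0.0946) in shZNF598 cells, with the widest intervals of the 10 genes. Over 0-4 h it was -0.65 (adjusted p = 3.37e-08) and -0.70 (adjusted p = 1.96e-08), and both slopes also passed over 0-6 h and with library totals. Contrasts of the group means, chosen after the course of PELO was seen, gave a change from 0 to 4 h of -2.57 (SE 0.158, adjusted p = 6.07e-12) in shControl and -2.82 (SE 0.159, adjusted p = 1.85e-12) in shZNF598 cells. Of all transcripts, 0.387% and 0.201% had a change at or below these values. The change from 4 to 10 h was 1.23 (SE 0.169, adjusted p = 7.76e-07) in shControl and 1.56 (SE 0.17, adjusted p = 3.18e-08) in shZNF598 cells. A fall from 0 to 4 h and a rise from 4 to 10 h, each past the threshold in both cell populations, was seen for 2.61% of all transcripts (2075 of 79513), and of the 10 genes for PELO alone.

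The genes whose course was most like that of PELO were JUN (Pearson r = 0.989), TRIM11 (0.987) and IER5 (0.985), out of 8706 genes compared over the 20 libraries of 0-10 h. JUN and IER5 are immediate early genes. The 20 libraries share the chase times, so r mostly describes the common time course and is given without a test. AU-rich elements in the 3′ UTR are known to bind factors that set mRNA turnover, and the 3′ UTRs of the 10 genes were searched for 3 motifs on the transcript strand: ATTTA, the core of AU-rich elements, the nonamer TTATTTATT, which contains it, and TGTANATA, the site of Pumilio proteins. The 3′ UTR of PELO (2204 nt) held 11 ATTTA pentamers and 2 overlapping TTATTTATT nonamers. Of 10139 coding genes with a 3′ UTR, 73.7% held ATTTA, 9.34% held TTATTTATT and 30.4% held TGTANATA. Whether any of the 3 motifs bears on the loss of these transcripts was not tested. The first nonamer of PELO is shown for comparison with those of HBS1L and LTN1 below, from GENCODE 44 sequence on GRCh38, 5′ to 3′ along the transcript with the nonamer in capitals.
PELO (chr5:52802675-52802699, plus strand, capitals from 843 nt after the stop codon): atgctataTTATTTATTtatttttt

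PELO lies inside ITGA1, an integrin gene on the same strand, and 499 nt (11.4%) of its row overlap ITGA1 exons. The highest-count ITGA1 row outside PELO went the other way from 0 to 4 h, from 1.06 ± 0.0226 to 1.59 ± 0.143 CPM in shControl cells (n = 2), and reached 3.21 ± 0.592 CPM at 10 h. Spread over the 499 shared nt, that level is 0.0843 CPM at 0 h and 0.255 CPM at 10 h, against 8.07 and 3.20 CPM for the PELO row. Reads of unspliced ITGA1 RNA over the PELO exons cannot be told apart from PELO in these counts. The other PELO row (888 nt) had 1.94 ± 0.503 CPM at 0 h, 0.479 ± 0.0401 CPM at 4 h and 0.832 ± 0.0825 CPM at 10 h in the shControl libraries.

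HBS1L, the GTPase that delivers PELO to the ribosome, rose from 0 to 4 h, where PELO fell. From 4 to 10 h both rose in shControl cells. HBS1L (ENST00000367837.10, chromosome 6, 134960378 to 135054822, minus strand, 7087 nt) gave 30.6 and 27.0 CPM at 0 h in shControl cells, 34.1 and 35.0 at 2 h, 39.4 and 43.0 at 4 h, 55.9 and 57.4 at 6 h, 59.6 and 70.7 at 10 h and 23.2 at 24 h. In shZNF598 cells it gave 31.9 and 31.7 CPM at 0 h, 36.7 and 37.8 at 2 h, 42.9 and 45.1 at 4 h, 58.0 and 49.0 at 6 h, 51.5 and 45.7 at 10 h and 18.1 at 24 h. At 0 and 2 h both shZNF598 libraries lay over both shControl libraries, at 4 and 6 h the groups overlapped, and at 10 h both shZNF598 libraries lay under both shControl libraries. The slope was 0.12 (SE 0.0149, adjusted p = 2.41e-07) in shControl and 0.067 (SE 0.0153, adjusted p = 0.000581) in shZNF598 cells. With scaling by library totals the slope in shZNF598 cells was 0.00618 and no longer passed (adjusted p = 0.793), and with the 24 h libraries included both slopes lost their call. All 16 tested HBS1L rows, which share reads, had a slope above 0 past the threshold in shControl cells (0.045 to 0.14).

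HBS1L also had the largest slope difference of the 10 genes, at -0.057 log2 per hour (SE 0.0216, 95% interval -0.102 to -0.0125). Its unadjusted p in edgeR's test was 0.0146 and its adjusted p was 0.664, so the difference did not pass. It ranged from -0.0737 to -0.038 in the 20 fits that left out 1 library. From 4 to 10 h the level rose by 0.66 (SE 0.108) in shControl cells and changed by 0.14 (SE 0.108) in shZNF598 cells. The difference between these changes, also chosen after the data were seen, was -0.52 (SE 0.152, adjusted p = 0.386), in a contrast in which 0.0868% of all transcripts were called. The 3′ UTR of HBS1L (4901 nt, longer than or as long as 91.3% of those of coding genes) held 22 ATTTA, 2 TTATTTATT and 1 TGTANATA. Its nonamers were the following.
HBS1L site 1 (chr6:134964298-134964322, minus strand, capitals from 965 nt after the stop codon): cccaaggtTTATTTATTtaacaaca
HBS1L site 2 (chr6:134963254-134963278, minus strand, capitals from 2009 nt after the stop codon): attgaattTTATTTATTaatacttc

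ABCE1, the ATPase that separates the subunits, rose to 6 h and then fell. Its row (ENST00000296577.9, chromosome 4, 145098311 to 145129524, plus strand) had 46.8 and 41.2 CPM at 0 h, 52.3 and 57.9 at 4 h, 66.3 and 69.3 at 6 h, 35.2 and 42.4 at 10 h and 25.6 at 24 h in shControl cells. In shZNF598 cells it had 44.3 and 45.3 CPM at 0 h, 54.8 and 52.4 at 4 h, 64.2 and 52.8 at 6 h, 36.6 and 29.4 at 10 h and 26.8 at 24 h. In both cell populations the 10 h libraries lay under all libraries of 2 to 6 h. Its slopes over 0-10 h were -0.0097 (SE 0.0283) and -0.041 (SE 0.0283), neither past the threshold, and over 0-6 h they turned positive, to 0.094 (adjusted p = 0.00021) and 0.056 (adjusted p = 0.0142). From 4 to 10 h ABCE1 fell by 0.51 on the log2 scale in shControl cells (SE 0.118, adjusted p = 0.000626) and by 0.70 in shZNF598 cells (SE 0.119, adjusted p = 1.93e-05).

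With contrasts of the group means, 6 of the 10 genes changed from 0 to 4 h in shControl cells, against 41.5% of all transcripts. Of these, HBS1L (0.52), TCF25 (0.47), ABCE1 (0.32) and VCP (0.24) rose, and PELO and GTPBP2 (-0.38) fell. In shZNF598 cells 4 changed, against 40% of all, with HBS1L (0.47) and TCF25 (0.33) higher and PELO and ANKZF1 (-0.35) lower. From 4 to 10 h, 5 changed in shControl cells (64.9% of all transcripts) and 4 in shZNF598 cells (61.5% of all). These were PELO, TCF25, ABCE1 and GTPBP2 in both, and HBS1L in shControl cells. No difference between the shRNAs in either change passed for any of the 10 genes, where 0.0126% of all transcripts were called for 0 to 4 h.

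**Figure D3:**
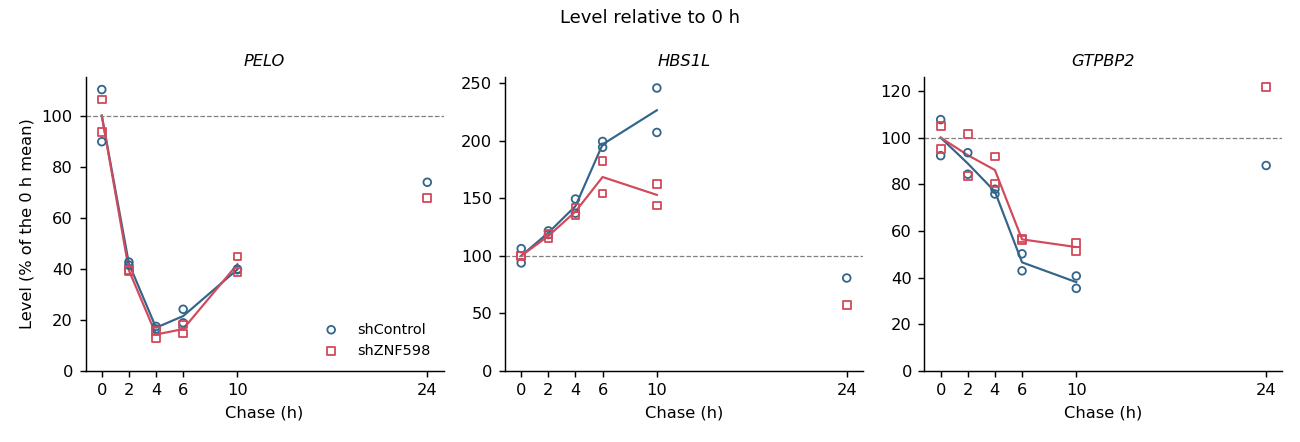
Level in percent of the 0 h mean of the same shRNA against hours of chase for PELO, HBS1L and GTPBP2. Circles are shControl and squares shZNF598 libraries, lines join the group means of 0-10 h, and the dashed line is 100%. PELO is lowest at 4 h in both cell populations, HBS1L reaches 227% in shControl and 153% in shZNF598 cells at 10 h, and GTPBP2 falls to 38% and 53.1%.

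Of the factors that tag the nascent chain on the large subunit, TCF25 stood apart. TCF25, the human homologue of yeast Rqc1, was read from ENST00000263346.13 (chromosome 16, 89873592 to 89911379, plus strand, 2248 nt). In shControl cells its libraries had 6.60 and 8.13 CPM at 0 h, 7.68 and 6.56 at 2 h, 10.6 and 9.93 at 4 h, 11.9 and 12.3 at 6 h, 14.9 and 15.4 at 10 h and 19.0 at 24 h. In shZNF598 cells they had 6.77 and 6.34 CPM at 0 h, 7.06 and 6.45 at 2 h, 8.13 and 8.30 at 4 h, 10.6 and 11.8 at 6 h, 10.7 and 11.9 at 10 h and 14.9 at 24 h. Both shZNF598 libraries lay under both shControl libraries at 4, 6 and 10 h, and the groups overlapped at 0 and 2 h. The same was seen at 3 of the 5 chase times for VCP and PELO (2, 4 and 6 h), and PELO had the reverse at 10 h. How many of all transcripts were separated in this way was not counted, here or for the other genes. The slope was 0.12 (SE 0.015, adjusted p = 7.48e-07) in shControl and 0.092 (SE 0.0154, adjusted p = 2.1e-05) in shZNF598 cells, the latter lost with scaling by library totals (0.032, adjusted p = 0.118) and over 0-4 h (0.081, adjusted p = 0.102). All 22 tested TCF25 rows, which share reads, were lost more slowly than the bulk in shControl cells (0.057 to 0.15).

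TCF25 was the one gene of the 10 whose averaged level passed the test between the shRNAs. Averaged over the 5 chase times of 0-10 h it was lower in shZNF598 cells, with a difference of -0.22 log2 units (SE 0.0538, 95% interval -0.33 to -0.108, adjusted p = 0.00503). In this comparison 22.4% of all transcripts were called, 12.3% as higher and 10.1% as lower, so the share called among the 10 genes was below the background. The difference stayed between -0.254 and -0.187 and past the threshold in the 20 fits that left out 1 library. Of the 22 TCF25 rows, which share reads, 12 passed, all lower. The 0 h difference was -0.17 (SE 0.124) and did not pass (adjusted p = 0.685). The 3′ UTR of TCF25 is short (141 nt) and held none of the 3 motifs.

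The slopes of NEMF and LTN1 over 0-10 h did not pass, and both gained a call under some alternatives. NEMF (ENST00000298310.10, chromosome 14, 49782083 to 49852788, minus strand) was at 6.33 to 9.98 CPM in the 20 libraries of 0-10 h, with slopes of 0.029 (SE 0.0164, adjusted p = 0.115) and 0.026 (SE 0.0167, adjusted p = 0.17). KLHDC2, a gene on the opposite strand, overlaps 2365 nt (40.6%) of the NEMF row, and the strand setting of the counting was not given in the sources used here, so reads of the 2 genes cannot be told apart with certainty. The highest-count NEMF row outside KLHDC2 had 2.85 ± 0.777 CPM at 0 h and 3.72 ± 0.243 CPM at 10 h in shControl cells, with slopes of 0.040 (SE 0.0197, adjusted p = 0.0724) and 0.051 (SE 0.0199, adjusted p = 0.0268). With DESeq2 size factors the slope of the NEMF row was 0.041 in shControl cells and passed (adjusted p = 0.0247), and DESeq2's Wald test called it in both cell populations (0.041, adjusted p = 0.0192, and 0.036, adjusted p = 0.0462). With the 24 h libraries included the shControl slope passed as well (0.029, adjusted p = 0.0192), and 3 of the 9 tested NEMF rows were lost more slowly than the bulk in shControl cells. LTN1 (ENST00000361371.10, chromosome 21, 28928144 to 28992877, minus strand, tied in mean count with 2 further rows) was at 10.9 to 21.1 CPM, with slopes of 0.022 (SE 0.0178, adjusted p = 0.263) and 0.013 (SE 0.0177, adjusted p = 0.533). Without shControl replicate 1 of 10 h the shControl slope of LTN1 was 0.044 (adjusted p = 0.0484), and over 0-6 h it was 0.070 (adjusted p = 0.0135). The genes of most like course to LTN1 were U2SURP (r = 0.94), RB1CC1 (0.931) and TRAPPC8 (0.929). LTN1 held 10 ATTTA in its 3′ UTR (2304 nt), 1 TGTANATA and 1 nonamer, which is shown for comparison with those of PELO and HBS1L.
LTN1 (chr21:28929991-28930015, minus strand, capitals from 441 nt after the stop codon): tttaagccTTATTTATTagttatga

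The slopes of the factors that release and extract the chain did not pass over 0-10 h, and some passed over 0-6 h. VCP (ENST00000358901.11, chromosome 9, 35056064 to 35072625, minus strand), the most highly labelled of the 10 genes per kilobase, ranged from 96.4 to 132 CPM in shControl and from 98.7 to 119 CPM in shZNF598 libraries of 0-10 h. Its slopes were 0.0097 (SE 0.0118, adjusted p = 0.465) and 0.0032 (SE 0.0117, adjusted p = 0.815), and with library totals they turned to -0.058 in both (adjusted p = 0.00335 and 0.00357). Over 0-6 h the shControl slope of VCP was 0.045 and passed (adjusted p = 0.015). The nearest courses were those of FOXRED1 (r = 0.91), WDR77 (0.91) and POLDIP2 (0.905). ANKZF1 (ENST00000323348.10, chromosome 2, 219229806 to 219236679, plus strand), the hydrolase that frees the chain, went from 3.61 and 3.27 CPM at 0 h to 2.702 and 2.37 at 6 h and 2.85 and 2.76 at 10 h in shControl cells. In shZNF598 cells it went from 3.51 and 3.50 CPM to 2.10 and 2.60 at 6 h and 2.999 and 2.979 at 10 h. Its slopes of -0.031 (SE 0.017, adjusted p = 0.108) and -0.032 (SE 0.0168, adjusted p = 0.0988) did not pass over 0-10 h, and those over 0-6 h did (-0.067 and -0.10, adjusted p = 0.0124 and 0.000738). At 24 h the single shControl library had 5.79 CPM of ANKZF1, 168% of the 0 h mean, and the single shZNF598 library had 6.94 CPM, 198% of its own.

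The GTPase pair split. GTPBP2 (ENST00000307126.10, chromosome 6, 43620494 to 43629264, minus strand), whose loss is known to cause neurodegeneration in mice with a defective arginine tRNA, gave 9.94 and 11.6 CPM at 0 h in shControl cells, 10.1 and 9.09 at 2 h, 8.17 and 8.39 at 4 h, 4.62 and 5.41 at 6 h, 4.38 and 3.81 at 10 h and 9.49 at 24 h. In shZNF598 cells it gave 9.97 and 9.02 CPM at 0 h, 9.63 and 7.93 at 2 h, 7.63 and 8.73 at 4 h, 5.32 and 5.39 at 6 h, 4.88 and 5.20 at 10 h and 11.6 at 24 h. The 6 and 10 h libraries lay under all earlier ones in both cell populations, and at 10 h both shZNF598 libraries lay over both shControl libraries. The slope was -0.15 (SE 0.0176, adjusted p = 1.51e-07) in shControl and -0.10 (SE 0.0174, adjusted p = 2.39e-05) in shZNF598 cells. The call in shZNF598 cells was lost over 0-4 h (-0.056, adjusted p = 0.19), and both were lost with the 24 h libraries included. The slope difference was 0.049 (SE 0.0243, 95% interval -0.00123 to 0.0999, adjusted p = 0.922). All 8 tested GTPBP2 rows, which share reads, were lost faster than the bulk in shControl cells (-0.18 to -0.14). The 3′ UTRs of HBS1L and LTN1 held 1 TGTANATA each, and that of NEMF held 2. The 3′ UTR of GTPBP2 (1120 nt) held 1 TGTANATA, in capitals here, and 1 ATTTA.
GTPBP2 (chr6:43620534-43620557, minus strand, capitals from 1065 nt after the stop codon): tatacataTGTATATAtatttaaa

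GTPBP1 (ENST00000216044.10, chromosome 22, 38705944 to 38733587, plus strand), the second GTPase of the pair, stayed at 34.8 to 44.9 CPM in shControl and 30.2 to 43.8 CPM in shZNF598 libraries of 0-10 h. Its slopes were -0.019 (SE 0.0129, adjusted p = 0.184) and -0.014 (SE 0.0131, adjusted p = 0.351). Of its 11 tested rows, 5 were lost faster than the bulk in shControl cells. With library totals the slopes of the main row were -0.087 and -0.075 and both passed (adjusted p = 2.57e-05 and 0.000172). Exons of other genes also overlap the rows of VCP (12.6% of the row, same strand), TCF25 (7.3%, same strand) and, on the opposite strand, ABCE1 (7.1% with OTUD4 and 2.8% with ANAPC10), GTPBP1 (6.08%), PELO (4.85%), ANKZF1 (3.23%) and GTPBP2 (0.99%), and reads of those stretches may belong to either gene.

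The comparison of the shRNAs asks if transcripts decay differently once ZNF598 is depleted, and the slopes of the 10 genes in the 2 cell populations were compared directly. None of the 10 slope differences passed (edgeR quasi-likelihood test, 0.116% of all transcripts called), and 1, that of HBS1L, had an unadjusted p below 0.05, where 5.53% of all transcripts did. DESeq2's Wald test called none either. The interval of HBS1L left out 0 and its difference still did not pass after adjustment. The intervals, which are unadjusted, thus show the precision of each difference and not the smallest difference that could have passed. They were narrowest for VCP (-0.041 to 0.0281 log2 per hour) and GTPBP1 (-0.0328 to 0.0435), and widest for PELO (-0.189 to 0.196). A straight line describes the course of PELO poorly, and with that fit a difference of a size like the slope of HBS1L was not detectable for PELO. At 0 h none of the 10 level differences passed edgeR's test or DESeq2's Wald test (0.407% of all transcripts called by edgeR), and none had an unadjusted p below 0.05, against 10.1% of all. The 0 h differences ran from -0.18 (GTPBP2, SE 0.126) to 0.16 (LTN1, SE 0.145).

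**Figure D4:**
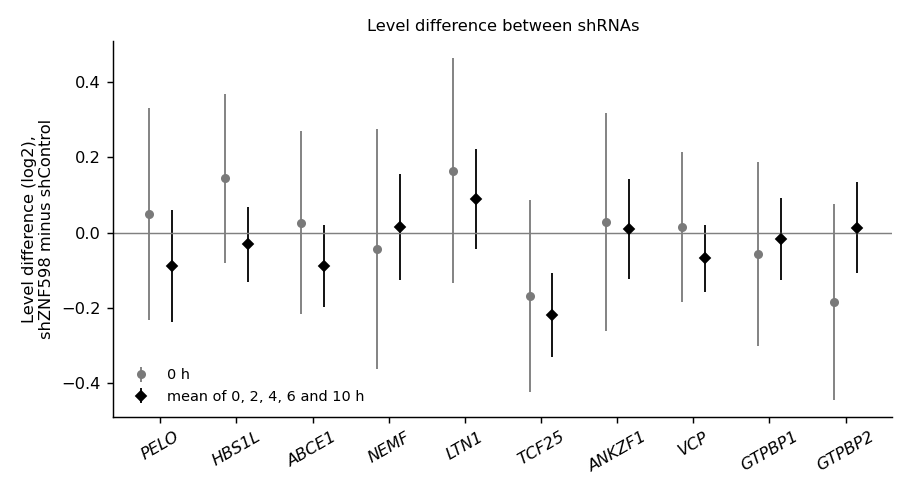
Level difference between the shRNAs (log2, shZNF598 minus shControl) for each gene, at 0 h (grey circles) and as the mean over the 5 chase times of 0-10 h (black diamonds). Bars are 95% intervals of the edgeR fit. The averaged difference of TCF25, at -0.22, is the one whose interval leaves out 0.

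A list of 32 further genes of the same pathways, ZNF598 among them, was set beside the 10, of which 29 passed the filter on low counts. In shControl cells 24 of the 29 had a slope past the threshold, against 74.4% of all transcripts. There 12 lay above and 12 below 0, against 33.5% and 40.8% of all. In shZNF598 cells 25 did, against 71.2% of all, with 13 above and 12 below 0, against 32.7% and 38.5%. No slope difference passed in edgeR's test, where 0.116% of all transcripts did. The slope difference of ZNF598 alone had an unadjusted p below 0.05, against 5.53% of all. Fast and slow loss lay side by side within most groups of factors. Among the collision sensors the cap-binding repressor EIF4E2 had the lowest slope (-0.21, SE 0.0216) and the ribosomal protein RACK1 the highest (0.19, SE 0.0185) in shControl cells. Of the ASC-1 complex, which disassembles collided ribosomes, ASCC1 was lowest (-0.20, SE 0.0229) and the helicase ASCC3 highest (0.099, SE 0.0173). Among the termination and recycling factors it was the release factor ETF1 (-0.12, SE 0.0235) and EIF2D (0.11, SE 0.0166). The SKI complex, which feeds mRNA to the exosome, held the slowest loss of the list in SKIC3 (0.20, SE 0.0127), and the endonuclease N4BP2 was lowest in that group (-0.021, SE 0.0186, adjusted p = 0.313). Among the partners in clearance, the ligase RCHY1 was lowest (-0.21, SE 0.0211) and the VCP cofactor UFD1 highest (0.16, SE 0.0133), whereas VCP itself had a slope of 0.0097.

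Of the same 29 genes, 9 differed between the shRNAs in the averaged level, where 22.4% of all transcripts did, and at 0 h the level difference of ZNF598 alone passed. Higher in shZNF598 cells were the UFMylation ligase UFL1 (0.42, SE 0.0677, adjusted p = 8.89e-05), the stress kinase MAP3K20 (0.34, SE 0.0589, adjusted p = 0.000212), the tRNA nucleotidyltransferase TRNT1 (0.29, SE 0.0795, adjusted p = 0.0101), RCHY1 (0.20, SE 0.0661, adjusted p = 0.0322) and the ubiquitin-like modifier UFM1 (0.18, SE 0.065, adjusted p = 0.0491). Lower were ZNF598, DENR (-0.18, SE 0.0465, adjusted p = 0.00831), SKIC2 (-0.19, SE 0.0577, adjusted p = 0.0217) and SKIC3 (-0.15, SE 0.0548, adjusted p = 0.0454).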

How the data were processed

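BrU-labelled RNA was immunoprecipitated, depleted of ribosomal RNA and sequenced as 50 nt single reads from a stranded kit. According to the labels and methods, the authors trimmed reads with fastp, removed reads of noncoding RNA, mapped them with STAR 2.7.0a to hg38 (CASAVA 1.8 for base calling) and counted them per transcript with featureCounts, whose version and strand setting are not given in the sources used here. The deposited values are raw counts per transcript, so isoforms share reads. The authors added BrU-containing spike-in RNAs before immunoprecipitation and scaled their fold changes to them. Those spike-ins were not used here, so the slopes above are relative to the bulk and differ in scaling from the decay rates of the study.

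Rows were named with GENCODE 44 on GRCh38 (98.4% of identifiers matched, 92.2% with their version). Counts were analysed with edgeR 4.0.16 (limma 3.58.1, R 4.3.3) by quasi-likelihood tests after TMM scaling, on the 79513 rows whose average in the 20 libraries of 0-10 h reached 1 CPM, and p-values were adjusted by Benjamini-Hochberg over all of these rows. One model had an intercept and a slope per shRNA, the other 1 mean per group. The fits were tested on simulated data. Alternatives covered scaling, filter, DESeq2 1.42.0, chase window, row choice, a replicate block and left-out libraries.

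The members and gene lists were chosen with earlier results of these data known. All 10 members were named, as were pathway genes past the threshold in a comparison between the shRNAs, the lowest and highest slope per group of factors, and 3 genes of most like course (Pearson r of log2(CPM + 0.5), mean of at least 5 CPM) for PELO, LTN1 and VCP. Replicate numbers were not taken as pairs. Counting error is relatively largest for the rows with the fewest counts, PELO and ANKZF1.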

Additional observations from a re-analysis of the deposited data

Results flagged for a closer look

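At 24 h GTPBP2 lay on opposite sides of its 0 h libraries in the 2 cell populations. The shControl library of 24 h had 9.488 CPM, under both 0 h libraries (9.94 and 11.6 CPM), and the shZNF598 library had 11.55 CPM, over both (9.97 and 9.02 CPM). The shControl value at 24 h rests on 164 counts, and the shControl pair at 0 h lay furthest apart of all groups. With 1 library per shRNA at 24 h, neither the 2 changes nor the difference between them was tested.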

How the results depend on the processing

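Of 1505 values of single genes recomputed under an alternative, 1466 kept their direction or stayed short of the threshold, 26 gained a call, 6 lost one and 7 turned, while a further 96 values that passed in neither fit changed sign and are counted among the 1466. In the 20 fits that left out 1 library, none of the calls of the 10 genes and none of the level calls of ZNF598 was lost. The shControl slope of ZNF598 kept its call in 18 of the 20, and the other pathway genes were not refitted this way. In shControl cells 3 of the 10 genes had a slope past the threshold with TMM scaling over 0-10 h, against 74.4% of all transcripts. The number was 8 with library totals (78.5% of all) and 8 over 0-6 h (67%). It was 6 for 4 h against 0 h (41.5%) and 5 for 10 h against 4 h (64.9%), both added after the data were seen. With 1 library left out the number was 3 to 4. In shZNF598 cells it was 3 (71.2% of all), 6 with library totals (75.8%) and 6 over 0-6 h (64.6%). With 1 library left out it was 3 to 5 there. The 5 came without shZNF598 replicate 2 of 10 h, as PELO (-0.18) and NEMF (0.047) then passed. The counts for the slope difference (0), the 0 h level (0) and the averaged level (1) did not move. Values that turned were the slopes of VCP with library totals (-0.05843 in shControl and -0.05785 in shZNF598 cells), of ABCE1 over 0-6 h (0.09424 and 0.05565) and, in shZNF598 cells over 0-24 h, of HBS1L (-0.02859), ANKZF1 (0.03784) and GTPBP2 (0.002435). Library totals lowered the slopes of all 10 genes in both cell populations, and the cause of the other changes was not tested.

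The replicate numbers were not taken as pairs, since no source ties them to a shared culture or day and not every pair of groups correlated above 0.1. Between the shRNAs at the same chase time, the replicate deviations correlated at -0.00487 (0 h), 0.12 (2 h), 0.35 (4 h), 0.299 (6 h) and -0.228 (10 h), and over all 45 pairs of groups at -0.328 to 0.476. A fit with the replicate number as a block called the slopes of 3 of the 10 genes in each cell population. Of all transcripts it called 74.1% in shControl and 71% in shZNF598 cells. For the 10 genes it called 0 slope differences (0.101% of all), 0 levels at 0 h (0.501%) and 1 averaged level (23.4%). It changed no call of the 52 values. DESeq2 gave no adjusted p for 3 values, which were counted as short of the threshold. Over all transcripts the counts of slope differences were 80 with the block and 92 without it, 579 with DESeq2's Wald test and 35 with library totals. With 2 libraries per group and 1 at 24 h, slopes rest on few points, and PELO rests on 76 to 669 counts per library.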
